A study of Mus musculus with 6 samples.

Results

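The subunits of the mitochondrial respiratory chain and of ATP synthase were examined in islet cells of newborn mice that had or had not expressed the signalling gene Wnt4. The members were chosen by name. They are the genes on the array whose symbols start with Ndufa, Ndufb, Ndufc, Ndufs or Ndufv (complex I), Uqcr (complex III), Cox4 to Cox8 (complex IV) or Atp5 (complex V), together with Sdha, Sdhb, Sdhc and Sdhd (complex II), without the assembly factors named Ndufaf. The rule gave 84 genes, read by 104 probes, of 45616 genes and transcripts, read by 56605 probes. Complex I held 38 of the genes, complex II 4, complex III 8, complex IV 17 and complex V 17. Cox7a2l and Ndufa4l2 are relatives of subunits that the rule took in with their families. Both populations were sorted from islets of Wnt4eGFPCre;mTmG pups at postnatal day 1, from stock bred to C57BL/6J. The Wnt4eGFPCre allele makes GFP-Cre from the Wnt4 locus, and mTmG is a reporter that turns on membrane GFP for good once Cre has acted. Wnt4hi cells (labelled GFPpositive, Wnt4+) carried membrane GFP, so they mark past or present Wnt4 expression in any islet cell type, and Wnt4low cells (labelled GFPnegative, Wnt4-) did not. There were 3 arrays of each, numbered 2, 3 and 4 for Wnt4hi and 1, 3 and 4 for Wnt4low, each from the pooled islets of 3 or 4 pups.

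Complex I takes electrons from NADH and complex II takes them from succinate, as part of the citric acid cycle. Complex III passes them to cytochrome c, and complex IV to oxygen. Complexes I, III and IV pump protons, and ATP synthase (complex V) uses the gradient to make ATP. In β-cells the ATP made from glucose closes potassium channels and so triggers insulin release, and mitochondrial oxidation increases as these cells mature after birth. Most subunits are encoded in the nucleus and are the ones described here. Those encoded in mitochondrial DNA were not analysed here.

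The 6 arrays were hybridised on 1 slide and read in 1 scan, and between 70.5% and 79.5% of their spots were well above background, the scanner software's own call. No spot was saturated. Wnt4 itself averaged 10.83 on the log2 intensity scale in Wnt4hi and 9.76 in Wnt4low, a difference of 1.08 (SE 0.27, limma adjusted p = 0.212). The sorted populations differed in cell types. All 6 pan-endocrine markers were higher in Wnt4hi (median difference 1.15 on the log2 scale), as were 7 of 8 β-cell markers (median 1.16) and all 5 alpha-cell markers (median 2.02), whereas all 10 endothelial markers (median -3.92), 10 of 11 pericyte and smooth muscle markers (median -1.55) and all 6 fibroblast markers (median -1.18) were lower. The summed endothelial marker intensity was 3766 to 5992 on the Wnt4hi arrays and 37965 to 70039 on the Wnt4low arrays. The pericyte sum was 33437 to 45887 against 66985 to 92053, and the pan-endocrine sum 108407 to 120783 against 40449 to 78139. The alpha-cell sum was 56282 to 97150 on the Wnt4hi arrays and 9829, 53707 and 40882 on Wnt4low arrays 1, 3 and 4. The β-cell sum was 317510 to 326536 against 189097, 285548 and 216196. Wnt4low array 1 thus stood apart in its alpha-cell sum and weighs on the alpha-cell median. The fibroblast sum was 42608 on Wnt4hi array 2, against 13257 and 20142 on Wnt4hi arrays 3 and 4 and 47434 to 56928 on the Wnt4low arrays, so that array 2 stood apart from the other two of its population. All 11 pericyte markers were well above background on all arrays, those of Wnt4hi included. The part of cell type makeup in any difference below was not tested.

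As a family, the subunits were called about as often as other features. Of the 84 members, 6 were higher in Wnt4hi at an unadjusted limma p under 0.05, the threshold in the study's methods. That was 7.14% of members, against 5.02% of all features. A further 3 members were lower, or 3.57%, against 5.53% of all features. None of the 84 passed after Benjamini-Hochberg adjustment over all features (limma), where 0.0351% of all features were called higher and 0.403% lower, and the lowest adjusted p of a member was 0.0847. The median difference between populations, Wnt4hi minus Wnt4low, was 0.08 on the log2 scale over the members and 0.07 over all features. The difference was above 0 for 63.1% of members and 63.5% of all features. All Wnt4hi arrays lay above all Wnt4low arrays for 7 members (8.33%, against 9.56% of all features) and below them for 3 (3.57%, against 6.44%). Of the 84 members, 80 were well above background on all 6 arrays. Among all features with a symbol that were well above background on all 6 arrays, 7.10% were called higher and 7.88% lower.

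The data set bounds on most members. The 95% interval of the difference stayed within 1 log2 unit of 0, that is within 2-fold in either direction, for 65 of 84 members or 77.4%, against 67.1% of all features. The difference itself was under 0.5 for 72 members, or 85.7%, against 81% of all features. For the other 19 members the interval reached past a 2-fold difference. That of Ndufa4l2 lay wholly past it, and for the rest a change of that size was neither shown nor bounded.

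**Figure D1:**
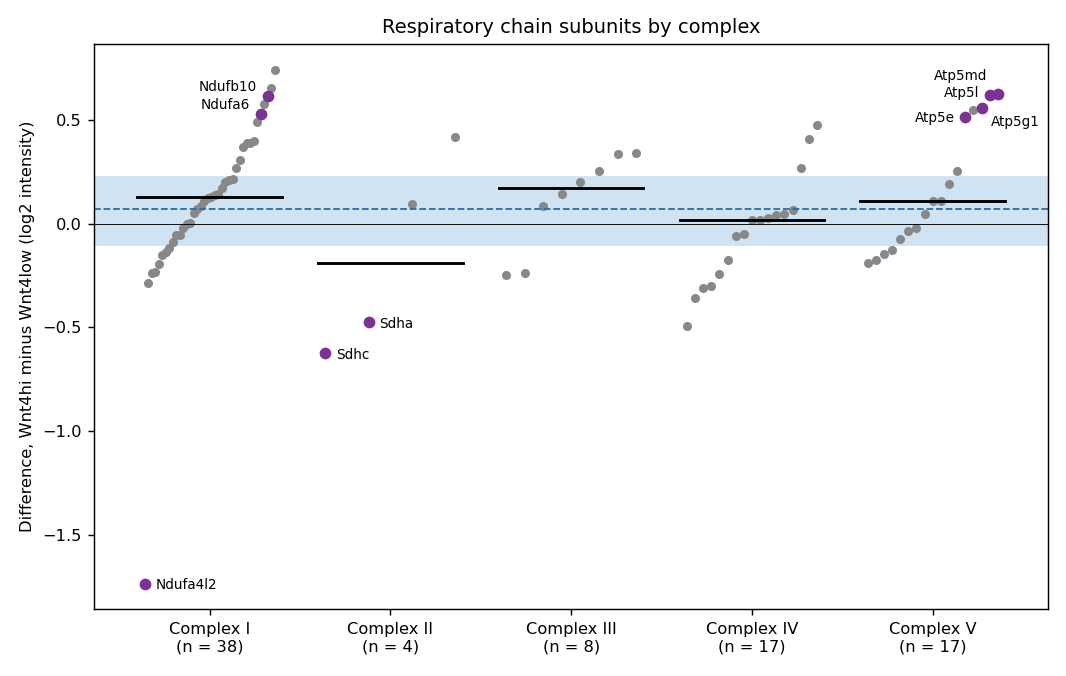
Difference between populations, Wnt4hi minus Wnt4low in log2 intensity, for each of the 84 member genes (points) in the 5 complexes. Purple points have an unadjusted limma p under 0.05, black bars are the median of a complex, the dashed line and blue band are the median and the quartiles of all 45616 features. Most points lie around the band, Ndufa4l2 stands alone at -1.74, and 4 of the 6 purple points above 0 belong to complex V.

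By complex, the median difference was 0.13 for complex I, -0.19 for complex II, 0.17 for complex III, 0.01 for complex IV and 0.11 for complex V. With the processed signal scaled to the 75th percentile these medians were 0.070 for complex I, 0.064 for complex III and -0.0029 for complex V. Array by array these medians did not separate the populations, apart from complex II. With each gene centred on its 6-array mean, the complex II median was -0.27, -0.31 and -0.04 on Wnt4hi arrays 2, 3 and 4, and 0.21, -0.01 and 0.07 on Wnt4low arrays 1, 3 and 4. The complex I median was -0.01, -0.05 and 0.22 in Wnt4hi and 0.05, -0.08 and -0.14 in Wnt4low, and only Wnt4hi array 4 stood above the others. The same array was highest for complex III, at 0.31, and for complex V, at 0.23, and lowest for complex IV, at -0.14. Over all features its median was -0.02. Without this array 1 member was called higher and 7 lower, the complex I median was -0.01 and the complex III median 0.06, so the counts above rest in part on it. The single member still called higher was Atp5l.

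**Figure D2:**
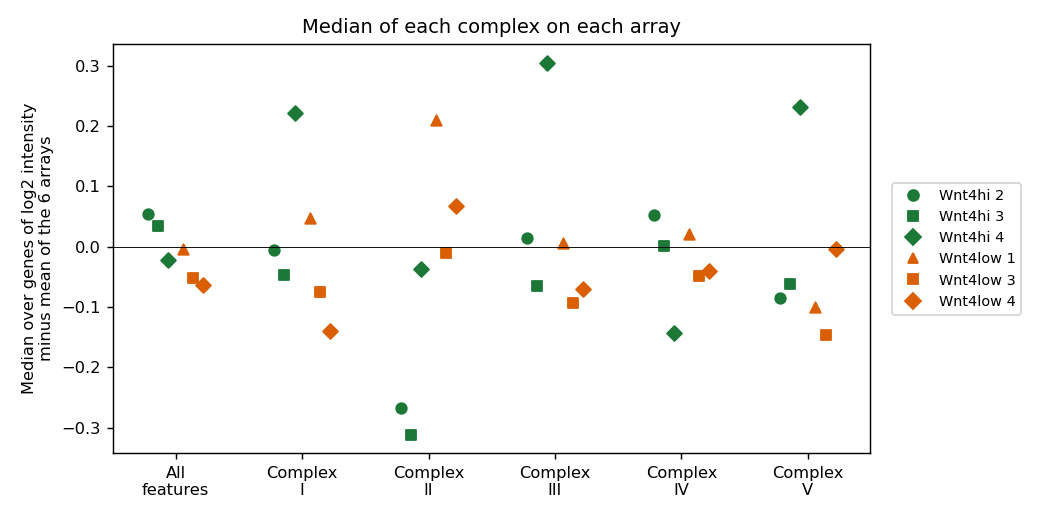
Median over the genes of each complex of the log2 intensity, relative to each gene's mean over the 6 arrays, on every array. Green marks are Wnt4hi arrays, orange marks Wnt4low arrays, and the shape gives the replicate number. Wnt4hi array 4 is highest for complexes I, III and V (0.22, 0.31 and 0.23) and lowest for complex IV, and only for complex II do the arrays of the populations not overlap.

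Some sequence motifs were more frequent in the promoters of the members than in all promoters. Windows from 250 bases before to 50 after the start of transcription (RefSeq, GRCm38.p6) were listed for 68 of the 84 members and gave 73 windows. They were searched on both strands for motifs linked to mitochondrial genes, chosen with the values already known: GCGCA, any base and then GCGC for the nuclear respiratory factor NRF1, CCGGAAG for ETS factors such as GABP, AAGGTCA for the estrogen-related receptors, and AAGATGG for YY1. The NRF1 letters stood in 24.7% of member windows and 4.60% of all 32851 windows. The ETS letters stood in 23.3% and 8.86%, the receptor letters in 10.96% and 4.72%, and the YY1 letters in 15.1% and 6.34%. At least 1 of the motifs stood in 56.2% of member windows, from 40 of the 68 genes, and in 22.04% of all windows. No match overlapped a match of another motif. Member windows were also richer in G and C, with a median of 57.3% against 52.7%. The 3 stretches shown are the 120 bases before the start of subunits described below, a pair that was higher in Wnt4hi (Atp5e, Atp5l) and one that was lower (Sdha), and capitals mark the motif matches. The first, on the minus strand of chr2:174464102-174464221, holds the ETS letters on the opposite strand. The second, on the minus strand of chr9:44920743-44920862, holds the receptor letters on the opposite strand. The third, on the minus strand of chr13:74350241-74350360, holds the NRF1 letters 3 times.
Atp5e: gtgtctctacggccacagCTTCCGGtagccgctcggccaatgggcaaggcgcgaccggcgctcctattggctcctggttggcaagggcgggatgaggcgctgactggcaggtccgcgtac
Atp5l: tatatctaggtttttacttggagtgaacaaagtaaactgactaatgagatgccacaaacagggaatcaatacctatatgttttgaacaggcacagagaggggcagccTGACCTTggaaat
Sdha: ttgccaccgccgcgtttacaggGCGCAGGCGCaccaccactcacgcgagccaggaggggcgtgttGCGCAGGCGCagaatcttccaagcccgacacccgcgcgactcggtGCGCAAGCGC
No comparison of motifs by direction was possible, since of the members called lower only Sdha has a window. Of the 7 members with an unadjusted p under 0.05 that have a window, 2 held the NRF1 letters (Sdha, which was lower, and Ndufa6, which was higher), 3 the ETS letters (Atp5e, Atp5l and Atp5md), 2 the receptor letters (Atp5e and Atp5l) and 0 the YY1 letters, in part outside the stretches shown. Such matches describe letters in a window and not bound sites.

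In complex I the largest difference was that of Ndufa4l2, and no core subunit was called. Of 38 genes 26 were higher and 12 lower in Wnt4hi, with 2 (5.26%, against 5.02% of all features) and 1 (2.63%, against 5.53%) past the unadjusted threshold. Ndufa4l2, a relative of NDUFA4 that is induced by hypoxia through HIF-1 and is abundant in pericytes, read 10.79, 10.38 and 10.46 on the Wnt4hi arrays and 11.72, 12.35 and 12.77 on the Wnt4low arrays. Every Wnt4low array was above every Wnt4hi array, and the level was 3.33-fold higher in Wnt4low (difference -1.74, SE 0.29, limma adjusted p = 0.0847). In bulk sorted populations, fewer cells of a type and less RNA per cell cannot be told apart. The unadjusted call was kept in all 17 alternative analyses that measured the gene, with differences from -2.14 to -1.49 and adjusted p from 0.0416 to 0.241. Its better known relative Ndufa4, counted here by its symbol although its protein is now placed in cytochrome c oxidase, read 11.70, 12.13 and 12.70 in Wnt4hi and 12.11, 11.81 and 12.24 in Wnt4low, so the populations overlapped (difference 0.12, 95% interval -0.55 to 0.80). The Ndufa4 difference was -0.14 without Wnt4hi array 4, 0.36 without Wnt4hi array 2 and 0.39 with the replicate number as a block. Without these relatives the complex I median stayed at 0.13.

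The 7 core subunits of complex I that carry its flavin and iron-sulfur clusters or shape its quinone site had a median difference of 0.17, and 0 of them passed. For 4 of the 7 the 95% interval stayed within 1 log2 unit of 0, and for the rest a 2-fold difference was not bounded. The flavin-binding Ndufv1 was close to equal, at 10.89, 11.12 and 11.15 in Wnt4hi and 11.25, 11.09 and 10.82 in Wnt4low (difference 0.00, 95% interval -0.40 to 0.40). Ndufs1, which holds several of the clusters, spread widely in Wnt4hi (10.28, 10.84 and 11.77) and hardly in Wnt4low (11.13, 11.24 and 11.21). Its difference of -0.23 (95% interval -1.13 to 0.66) depended on single arrays, since it was 0.11 without Wnt4hi array 2 and -0.63, and called lower, without Wnt4hi array 4. The core median was -0.11 without Wnt4low array 4.

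Among the accessory subunits of complex I, which surround the core, Ndufa6 and Ndufb10 were the ones called higher. Ndufa6 read 12.26, 12.46 and 12.88 in Wnt4hi and 11.84, 12.20 and 11.98 in Wnt4low, with no overlap and a 1.44-fold difference (0.53, SE 0.20, limma adjusted p = 0.435). Ndufb10, a membrane arm subunit, read 12.20, 12.57 and 12.84 against 12.27, 11.89 and 11.61, where Wnt4low array 1 lay above Wnt4hi array 2 (difference 0.62, SE 0.24, limma adjusted p = 0.450). The highest difference in the complex was that of Ndufv3, a flavoprotein subunit, at 0.74, and it did not pass (95% interval -0.19 to 1.67). Wnt4hi array 2 read 12.61 for Ndufv3, while Wnt4hi arrays 3 and 4 read 11.38 and 11.52 and the Wnt4low arrays 11.52, 10.99 and 10.77. Without Wnt4hi array 2 the difference was 0.35. The authors' log2 table gives 11.73 for this array. Wnt4hi array 2, which also reads highest for Cox7a2 and Atp5g1 below, is the Wnt4hi array with the high fibroblast sum (42608). The Wnt4low arrays had higher sums (47434 to 56928) and read lower than Wnt4hi array 2 for each of these genes. The part of fibroblast content in these values was not tested. Ndufa6 kept its unadjusted call in 11 of 18 alternative analyses and Ndufb10 in 12 of 18. Ndufa6 lost it without Wnt4hi array 3 or 4 or Wnt4low array 1 or 4 (differences from 0.36 to 0.66 with 1 array left out), and also with the replicate number as a block (0.58). Ndufb10 lost it without Wnt4hi array 3 or 4 or Wnt4low array 3 or 4 (0.46 to 0.79). Both genes also lost it with the processed signal and with median centring.

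In the main analysis complex II was the only complex in which subunits were called lower and none higher. Of its 4 genes 2 were called lower (50%, against 5.53% of all features). The same genes had all Wnt4hi arrays below all Wnt4low arrays, against 6.44% of all features. Without Wnt4hi array 4, complexes I, III and IV also had only lower calls. Sdhc, which anchors the enzyme in the inner membrane and helps bind heme and ubiquinone, read 10.84, 10.78 and 10.79 in Wnt4hi and 11.28, 11.40 and 11.62 in Wnt4low. The Wnt4hi arrays lay close together (SD 0.03), and every Wnt4low array was higher (1.54-fold, difference -0.63, SE 0.14, limma adjusted p = 0.162). Sdha, the flavoprotein that oxidises succinate, read 10.90, 10.60 and 11.27 against 11.42, 11.35 and 11.43, again without overlap (1.39-fold higher in Wnt4low, difference -0.48, SE 0.19, limma adjusted p = 0.468). The unadjusted call of Sdhc was kept in all 18 alternative analyses, and that of Sdha in 4 of 17, of the single arrays only Wnt4hi array 4 being dispensable (differences from -0.65 to -0.31 with 1 array left out). When replicate number was fitted as a block, the difference of Sdha was -0.45 and not called. The second probe of Sdha differed by -0.54, but this rested on Wnt4hi array 2, without which it differed by 0.090.

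The other subunits of complex II were not called. Sdhd, the second membrane anchor, read 11.74, 12.65 and 12.47 in Wnt4hi and 12.05, 11.62 and 11.95 in Wnt4low, with overlap and a difference of 0.42 (95% interval -0.25 to 1.08), and it was called higher in 3 of 18 alternative analyses. Sdhb, the iron-sulfur subunit, read 11.38, 10.47 and 10.58 against 11.25, 10.56 and 10.34 (difference 0.10, 95% interval -0.73 to 0.92). Its second probe differed by -0.55, which rested largely on Wnt4low array 1 (-0.10 without it). The sign of the Sdhb difference turned in 8 of 18 alternative analyses, down to -0.66 with the processed signal. The complex II median of -0.19 rests on that choice of probe and moved to -0.37 with the mean of all probes and to -0.55 with cyclic loess. Of the factors that assemble complex II, Sdhaf4, a chaperone of free SDHA, was higher in Wnt4hi (difference 0.71, limma adjusted p = 0.174) and Sdhaf2, which helps attach the flavin to SDHA, was lower (difference -0.79, limma adjusted p = 0.464). The Sdhaf2 arrays of the populations overlapped.

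**Figure D3:**
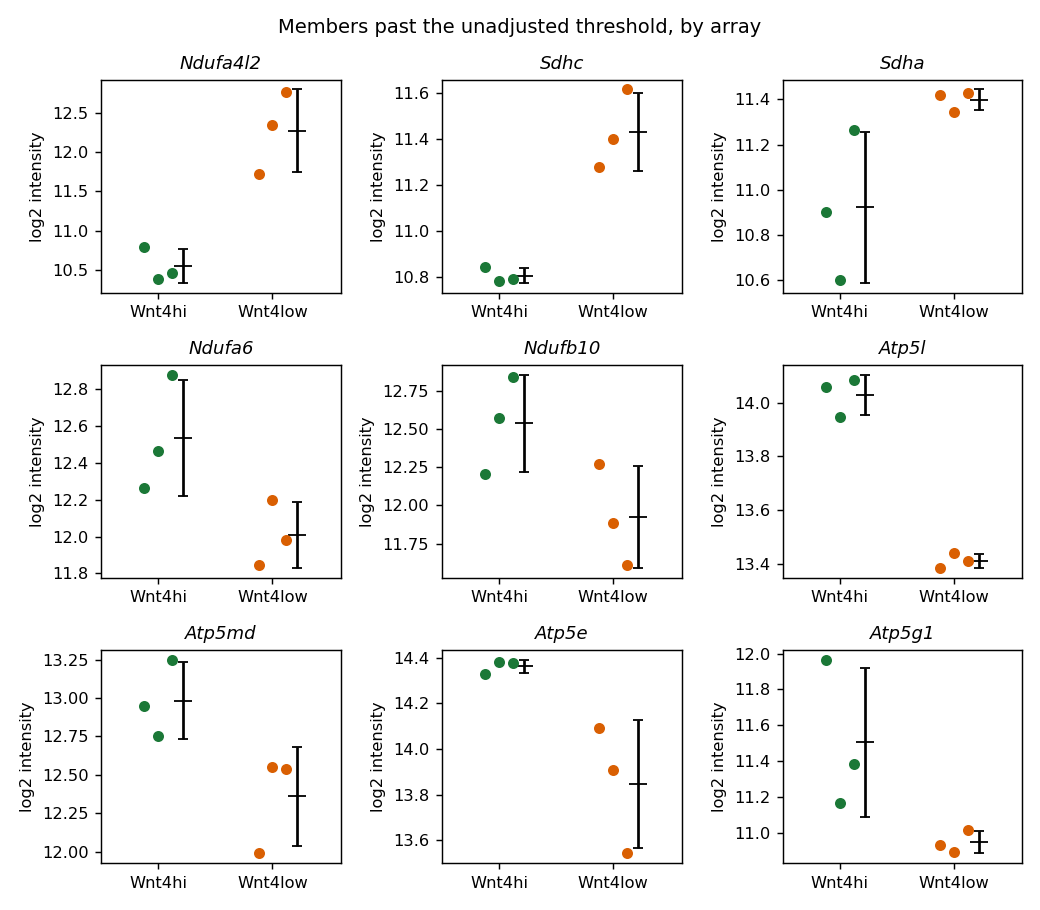
Log2 intensity on each array of the 9 members with an unadjusted limma p under 0.05, Wnt4hi in green and Wnt4low in orange, with the mean and SD of the 3 arrays as a bar and whiskers beside the points. Each panel has an axis range of its own. The populations do not overlap in any panel but that of Ndufb10, and Sdhc, Atp5l and Ndufa4l2 have the widest gaps relative to their spread.

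Complex III showed no member past the threshold in either direction, and for all 8 of its genes the 95% interval stayed within 1 log2 unit of 0. Of these 6 were higher (75%, against 63.5% of all features) and 2 lower in Wnt4hi. With 1 array left out, Uqcrc1 was called lower without Wnt4hi array 4 (-0.49) and Uqcrc2 higher without Wnt4low array 3 (0.52), while the difference of Uqcrc1 was -0.064 without Wnt4hi array 2 and that of Uqcrc2 0.21 without Wnt4low array 1. Uqcrc1 was at -0.029 with the authors' log2 table and Uqcrc2 at 0.12 with the processed signal. Uqcrfs1, the Rieske iron-sulfur protein, read 11.72, 11.62 and 12.09 in Wnt4hi and 11.48, 11.45 and 11.75 in Wnt4low (difference 0.25, 95% interval -0.18 to 0.69). The core proteins, which hold the enzyme together, lay at the opposite ends. Uqcrc2 differed by 0.34 (95% interval -0.16 to 0.84), with 12.80, 12.47 and 12.75 against 12.06, 12.69 and 12.25. Uqcrc1 differed by -0.25 (95% interval -0.85 to 0.36), with 9.92, 10.17 and 10.77 against 10.54, 10.71 and 10.35. Only Uqcrb, a small subunit near the quinone site, had Wnt4hi arrays (13.49, 13.62 and 14.11) that all lay above the Wnt4low arrays (13.38, 13.41 and 13.43), with a difference of 0.34 that did not pass. That is 12.5% of the 8 genes, against 9.56% of all features. Without Wnt4hi array 4 the Uqcrb difference was 0.15. Uqcc1, which is needed to make cytochrome b of this complex, was higher in Wnt4hi, with 10.84, 10.16 and 10.53 against 8.81, 9.46 and 9.81 (difference 1.15, SE 0.31, limma adjusted p = 0.233).

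Complex IV, cytochrome c oxidase, also had 0 genes past the threshold, where 5.02% of all features were called higher and 5.53% lower. Of its 17 genes 9 were higher (52.9%, against 63.5% of all features) and 8 lower in Wnt4hi. Its 9 broadly expressed subunits had a median difference of -0.05. The 7 isoforms restricted to certain tissues had one of 0.01, but Cox8c was well above background on 0 of the 6 arrays, Cox7b2 on 1 and Cox8b on 5. The lowest difference was that of Cox5a, a subunit on the matrix side of the enzyme, at -0.49 (95% interval -1.35 to 0.36). It read 10.16, 10.73 and 10.34 in Wnt4hi and 11.64, 10.41 and 10.65 in Wnt4low, so that it rested on Wnt4low array 1, and without this array it was -0.12. With the replicate number as a block the Cox5a difference was 0.00019. The highest among well-measured genes was Cox7a2, at 0.41 (95% interval -0.23 to 1.04), where Wnt4hi array 2 read 13.15, the other two Wnt4hi arrays 12.28 and 12.39, and the Wnt4low arrays 12.40, 12.05 and 12.14. Without Wnt4hi array 2 it was 0.14. With the authors' log2 table, which gives 12.36 for this array, the Cox7a2 difference was 0.086.

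In the isoform pairs of complex IV no form passed the threshold, and the arrays of the populations overlapped for each. Cox4i1, the general form of subunit 4, read 13.51, 13.38 and 13.06 in Wnt4hi and 13.77, 13.00 and 13.33 in Wnt4low (difference -0.05, 95% interval -0.63 to 0.53). Cox4i2, its lung and hypoxia-induced form, which is also abundant in pericytes, read 12.57, 12.49 and 11.90 against 12.95, 12.45 and 12.48 (difference -0.31, 95% interval -0.90 to 0.28), and without Wnt4hi array 4 the difference was -0.098. The Cox4i2 arrays overlapped, unlike those of Ndufa4l2. The differences were -0.06 for Cox6a1 and -0.18 for its heart and muscle form Cox6a2. They were 0.41 for Cox7a2 and 0.02 for its heart and muscle form Cox7a1, and 0.03 for Cox8a and 0.01 for Cox8b. Cox6b1 differed by -0.30 (-0.56, and called lower, without Wnt4hi array 4) and its testis form Cox6b2 by -0.36 (95% interval -1.32 to 0.60). Cox7b differed by 0.04 and the poorly measured Cox7b2 by 0.47 (95% interval -0.45 to 1.40). The 95% intervals of all these isoforms included 0 and, apart from those of Cox7a2, Cox6b2 and Cox7b2, lay within 1 log2 unit of it. Markers of striated muscle, in which the muscle forms are high, had a median difference of -0.18, and 0 of 6 passed.

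Of the 11 pericyte and smooth muscle markers, 10 were lower in Wnt4hi, the direction of Ndufa4l2, and Tagln differed by 0.03. With each marker centred in the same way, their median was -0.08, -0.91 and -0.76 on Wnt4hi arrays 2, 3 and 4 and 0.43, 0.98 and 1.01 on Wnt4low arrays 1, 3 and 4. Of the 11, 8 were lower at an unadjusted p under 0.05 (72.7%, against 5.53% of all features) and 0 were higher (against 5.02%). Pdgfrb, a growth factor receptor used to mark pericytes, read 12.10, 10.88 and 11.94 against 13.10, 13.63 and 13.79. Higd1b, a mitochondrial protein of the HIG1 family and itself on the pericyte list, read 11.55, 11.08 and 10.78 against 12.62, 12.72 and 12.29 (difference -1.41, SE 0.24, limma adjusted p = 0.0863). The other members of the HIG1 family did not pass, with differences of -0.44 for Higd1a, 0.12 for Higd1c and 0.05 for Higd2a. Whether pericyte content has a part in the difference of Ndufa4l2 was not tested.

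**Figure D4:**
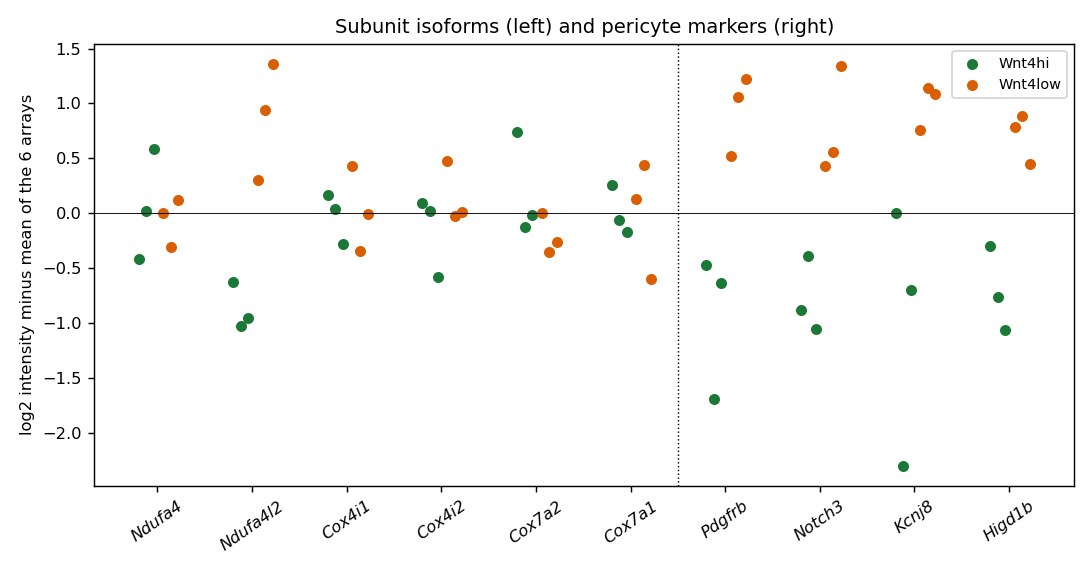
Log2 intensity relative to each gene's mean over the 6 arrays, for subunits and their isoforms on the left and 4 of the 11 pericyte and smooth muscle markers, picked for display, on the right. Green points are the 3 Wnt4hi arrays and orange points the 3 Wnt4low arrays of each gene. Ndufa4l2 and the markers shown separate the populations, with Wnt4low higher, while markers not shown, such as Cspg4 (-0.08), Acta2 (-0.21) and Tagln (0.03), overlap, as do Ndufa4, Cox4i1, Cox4i2, Cox7a2 and Cox7a1.

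ATP synthase held 4 of the 6 members called higher in Wnt4hi and none called lower. Of these 4, Atp5l and Atp5md belong to the membrane part, Atp5g1 to the c ring and Atp5e to the F1 head. That is 23.5% of its 17 genes, beside 5.02% of all features, and the other 13 showed no common direction, with 6 of them above 0 and 7 below. With the replicate number as a block, 1 of the 17 genes was called higher, Atp5e. Atp5l, subunit g of the membrane part, was the clearest. It read 14.06, 13.95 and 14.09 in Wnt4hi and 13.39, 13.44 and 13.41 in Wnt4low, a gap many times the spread within either population (1.54-fold, difference 0.62, SE 0.12, limma adjusted p = 0.118). The unadjusted call was kept in 17 of 18 alternative analyses and lost with the replicate number as a block (difference 0.59), and the difference was smallest with the authors' log2 table, at 0.36. RefSeq lists 2 pseudogenes of Atp5l, and whether its probe also reads them was not tested. Atp5md, a small membrane subunit also called DAPIT or Usmg5, read 12.95, 12.75 and 13.25 against 11.99, 12.55 and 12.54 (1.54-fold, difference 0.62, SE 0.22, limma adjusted p = 0.386). All its Wnt4hi arrays were higher, and its second probe differed by 0.72. Its call was lost without Wnt4hi array 2 or 4 or Wnt4low array 1, the last leaving a difference of 0.44, and with median centring or the replicate number as a block. With Wnt4hi array 4 left out, Atp5l was the one subunit of the enzyme that stayed called, and the same held with median centring.

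In the catalytic head of the enzyme, F1, the small subunit ε was the 1 of 5 subunits called higher (20%, against 5.02% of all features). Atp5e, which encodes ε, read 14.33, 14.38 and 14.38 in Wnt4hi and 14.09, 13.91 and 13.54 in Wnt4low, with no overlap (1.43-fold, difference 0.52, SE 0.17, limma adjusted p = 0.357). The call of Atp5e was kept in 11 of 18 alternative analyses, and was lost without any 1 of the Wnt4hi arrays or without Wnt4low array 4 (differences from 0.36 to 0.64 with 1 array left out). It was also lost with the processed signal, median centring or the authors' log2 table. Atp5b, the catalytic β subunit, read 12.76, 12.78 and 12.91 against 12.19, 12.92 and 13.45, where the Wnt4low arrays spread on both sides of the Wnt4hi arrays (difference -0.03, 95% interval -0.81 to 0.74). Atp5a1, the α subunit, read 13.80, 14.16 and 14.37 against 13.50, 13.90 and 14.18 (difference 0.26, 95% interval -0.32 to 0.83), and its second probe differed by -0.18, or by 0.093 without Wnt4hi array 2. Atp5c1, the γ subunit that turns inside the head, read 12.12 to 13.11 in Wnt4hi and 11.85 to 12.23 in Wnt4low, with overlap (difference 0.55, 95% interval -0.12 to 1.21), and was called higher when Wnt4hi array 3 was left out. The F1 median of 0.26 was that of Atp5a1, and it was 0.04 with the mean of all probes and 0.12 without Wnt4low array 1.

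The c ring, the rotor through which protons pass, is made from 3 genes that encode the same mature protein. Only Atp5g1 was called higher in Wnt4hi (33.3% of the 3 genes, against 5.02% of all features). It read 11.97, 11.17 and 11.38 against 10.93, 10.90 and 11.02 (1.47-fold, difference 0.56, SE 0.23, limma adjusted p = 0.466). Its second probe differed by 0.17, or by 0.065 without Wnt4low array 4, and the call was kept in 3 of 17 alternative analyses, of the single arrays only Wnt4hi array 3 being dispensable (differences from 0.33 to 0.73 with 1 array left out). The lowest of these was without Wnt4hi array 2, and with the replicate number as a block the difference was 0.32 and not called. Atp5g2 differed by -0.15 (11.77, 11.93 and 12.31 against 12.04, 12.07 and 12.34) and Atp5g3 by 0.11 (12.38, 12.07 and 12.40 against 12.20, 12.08 and 12.25), and both overlapped. In the peripheral stalk, which holds the head still, 0 of 4 genes passed, with differences from -0.19 for Atp5o to 0.19 for Atp5h. Without Wnt4hi array 4 the Atp5h difference was -0.033. Atp5o, the stalk's link to the head, read 11.69, 11.90 and 12.25 against 12.53, 12.02 and 11.86, with overlap. Its difference was 0.0056 without Wnt4low array 1 and 0.13 under the replicate block, and the second Atp5o probe differed by -0.49, or by -0.25 without Wnt4low array 1 and -0.20 without Wnt4hi array 2.

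**Figure D5:**
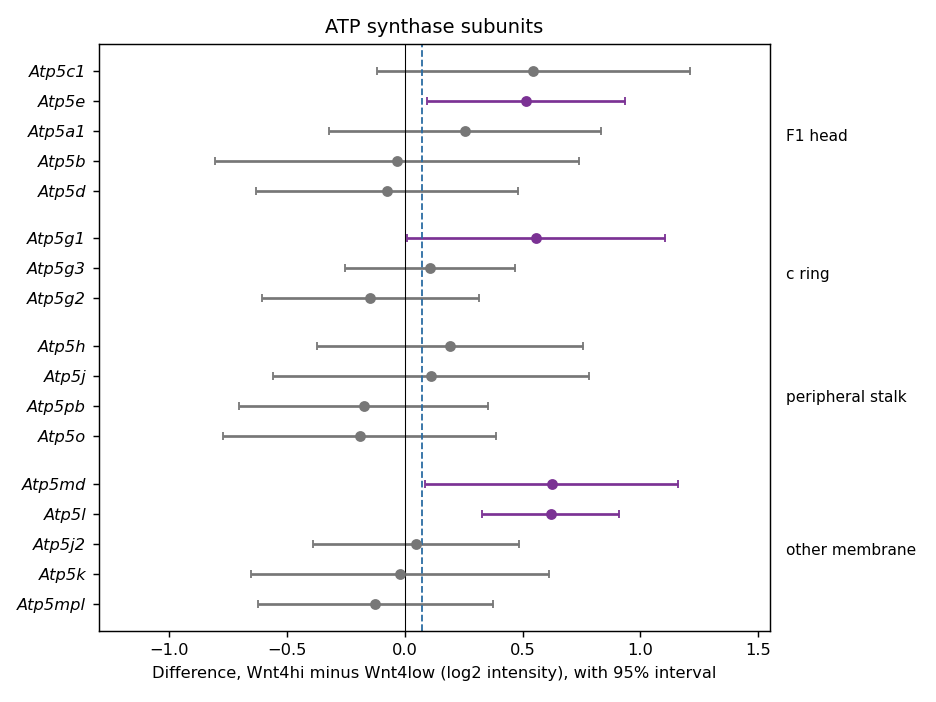
Difference between populations, Wnt4hi minus Wnt4low in log2 intensity, with its 95% interval, for the 17 ATP synthase genes grouped by their place in the enzyme. Purple marks genes with an unadjusted limma p under 0.05, the dashed line the median of all features. The intervals of Atp5l, Atp5md, Atp5e and Atp5g1 lie above 0, Atp5g1 only just, and those of the other 13 genes include 0.

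Other genes serve the chain without being members. Atpif1, the inhibitor that stops ATP synthase from running backwards, was higher in Wnt4hi at the unadjusted threshold, and its lowest Wnt4hi array (13.69) lay above its highest Wnt4low array (13.48, difference 0.38, SE 0.14, limma adjusted p = 0.397). Cyc1, the cytochrome c1 of complex III, and Cycs, cytochrome c, differed by -0.11 and 0.18 and did not pass. Of 48 assembly factors, 4 were higher (8.33%, against 5.02% of all features) and 2 lower (4.17%, against 5.53%) at an unadjusted p under 0.05, their median difference was 0.01, and 0 passed after adjustment over all features (limma). The 95% interval stayed within 1 log2 unit of 0 for 29.2% of these factors, a smaller share than the 77.4% of members and 67.1% of all features, and the difference was above 0 for 52.1%. Apart from those of complexes II and III given above, they were factors of complex IV. Coa3 (difference 0.61, SE 0.15) and Lrpprc, which keeps mitochondrial messenger RNA stable (0.58, SE 0.18), were higher in Wnt4hi. Surf1, which acts early in building the oxidase, was lower (-0.86, SE 0.26), with 9.12, 10.03 and 9.88 against 10.64, 10.38 and 10.60. None of the factors of complexes I and V passed.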

How the data were processed

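The authors sorted cells by FACS, pooled islets of 3 or 4 pups per sample, amplified the RNA, labelled it with Cy5 and hybridised it to 1-colour Agilent arrays. The deposited scanner files hold spot intensity from Feature Extraction, version 9.1 per the labels and 12.0.1.1 per the file headers. The deposited value table, on a log2 scale, served as an alternative only. It names 69 of the 84 members, and its column for Wnt4hi 2 follows that array less closely (correlation of deviations 0.31) than the other columns follow theirs (0.68 to 0.92). Following the authors' methods, median intensities were background-corrected by normexp (offset 50) and quantile-normalised in limma 3.58.1 (R 4.3.3). Control spots and outlier or non-uniform spots were left out, spots of a probe were averaged, RefSeq accessions were matched to symbols (32994 of 35886 matched) and the probe with the highest mean stood for a gene. The comparison used lmFit and eBayes on all 6 arrays, with Benjamini-Hochberg adjustment over 45616 features. Whether same-numbered samples of the populations came from the same pups is not stated, and p-values measure only the spread between these samples. Precision is limited by how many arrays there are. The pipeline was tested on simulated data with planted differences. Planted differences of 0.5, 1 and 2 log2 units passed after adjustment for 0%, 2.99% and 34.8% of the changed features. At the unadjusted threshold the shares were 55.2%, 79.1% and 97.0%. Members and gene lists were chosen with earlier results of these data known. Genes named with values were those with an unadjusted p under 0.05, the extremes of each complex, isoform pairs, c ring genes, Cox5a and a chosen few of the subunits with redox centres (Ndufv1, Ndufs1, Sdha, Sdhb, Uqcrfs1) or of F1 (Atp5a1, Atp5b). Uqcrb, Atp5c1, Atp5h, Cox6b1, Cox6b2, Cox7b, Cox7b2, Cspg4, Acta2 and Tagln were named after their values were seen. Acinar (median difference -0.45), ductal (-0.19), erythroid (-0.25), Schwann (-0.77), and macrophage (-0.58) markers were also summarised, and the delta and PP markers diverged (Ppy 1.22, Sst -0.56, Hhex -1.75). Alternatives changed background correction, normalisation, dim-probe filter, outlier handling, probe choice, variance model and replicate block, used the authors' log2 table, or left out each array in turn.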

Additional observations from a re-analysis of the deposited data

How the results depend on the processing

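The counts of members past the unadjusted threshold, 6 higher and 3 lower, depended on the scaling. They were 3 and 2 with the software's processed signal scaled to the 75th percentile, 1 and 2 with median centring, and 8 and 1 with the authors' log2 table, which names 69 members. The share of members above 0, 63.1%, was 50% with the processed signal and 53.6% with median centring, where it was 63.9% and 64.5% for all features. Leaving out 1 array gave 1 to 6 higher and 2 to 7 lower, with the extremes of 1 and 7 both without Wnt4hi replicate 4. With dim probes left out 1 member passed after adjustment, Ndufa4l2 (adjusted p = 0.0416). Ndufa4l2 and Sdhc kept their unadjusted calls wherever measured, and Atp5l lost its call only under the replicate block. The complex II median of -0.19 was -0.52 without background subtraction, -0.54 with the processed signal, -0.52 with median centring, -0.55 with cyclic loess, -0.37 with the mean of all probes and -0.42 over 3 genes with the authors' table, which lacks Sdha; other normalisations chose the other Sdhb probe. The complex IV median of 0.01 was -0.074 with median centring and -0.065 with the authors' table, its broadly expressed subunits were at -0.19 with median centring, and its tissue-restricted isoforms at -0.18 without dim probes. With the processed signal the medians of complexes I, III and V were 0.070, 0.064 and -0.0029. The F1 median was 0.084 with the processed signal and 0.039 with the mean of all probes, and with the authors' table, which lacks Atp5g1, Atp5j2 and Atp5k, the c ring was at -0.045 and the other membrane subunits at 0.36. The latter median, reported as 0.047, turned sign in 4 of 18 alternatives and was -0.058 with median centring. The cause of these shifts was otherwise not tested. Leaving out 1 array, medians ran from -0.012 to 0.18 for complex I, -0.33 to -0.040 for II, 0.060 to 0.32 for III, -0.10 to 0.060 for IV and 0.018 to 0.24 for V, from -0.024 to 0.20 for complex I accessory and -0.11 to 0.23 for core subunits, and from -0.22 to 0.077 for broadly expressed and -0.27 to 0.034 for tissue-restricted complex IV genes. In ATP synthase they ran from 0.12 to 0.36 for F1, 0.049 to 0.22 for the c ring, -0.17 to 0.095 for the peripheral stalk and -0.058 to 0.17 for the other membrane subunits. Replicate numbers 3 and 4 occur in both populations, but no label ties them to the same pups, and same-numbered arrays deviated together with correlations of -0.05 and 0.20. With a replicate block 5 members were higher and 2 lower, of which 2 and 2 were also among the 6 and 3; Atp5l, Atp5md, Atp5g1, Ndufa6 and Sdha lost their calls and Ndufb9, Ndufs8 and Sdhd were called higher. Under it the other membrane subunits of ATP synthase had a median of 0.27 and the tissue-restricted isoforms of complex IV one of -0.090; a random block gave 7 and 3. All other alternatives kept each of these counts within 1.5 times the reported value. Signal over background was between 10.8 and 15.6 on all arrays, so dimness limits only Cox8c, Cox7b2, Cox8b and Ndufab1.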
